A study of Homo sapiens with 12 samples.

Results

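The genes described are 10 ligands that tumour cells show to T cells, macrophages and natural killer (NK) cells. They are CD274 (PD-L1), PDCD1LG2 (PD-L2), CD276 (B7-H3), CD47, ULBP1, ULBP2, MICA, MICB, PVR and NECTIN2. They were chosen by symbol and matched through the gene identifier with its version dropped, and all 10 were found among the 60660 identifiers of the count table. RNA was sequenced in 12 libraries, 3 in each of 4 groups, whose labels give the cell line HS578T, a breast cancer line that lacks the hormone receptors and HER2 amplification. The groups were cells labelled 17p-deleted in 1 µM doxorubicin, the same cells in DMSO, cells labelled 17p-intact in 170 nM doxorubicin, and those in DMSO, all taken at 48 h. Doxorubicin is an anthracycline that damages DNA through topoisomerase II, and DMSO is its vehicle. The labels describe the deleted cells (17PKO in the titles) as lacking a copy of the short arm of chromosome 17, and name the intact cells Cas9. They do not say whether either is a clone or a pool, or whether libraries of the same group come from different cultures. The p-values therefore reflect the spread between these libraries alone, and that spread may be technical. Among treated libraries the dose differs with the genotype by a ratio of 5.88, so dose and genotype cannot be told apart there. Other differences between the 2 populations of cells would follow the genotype label too.

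CD274 and PDCD1LG2 bind PD-1 on T cells and restrain them, and their transcription is known to follow interferon signalling through JAK kinases, STAT factors and IRF1. CD47 binds SIRPA on macrophages and blocks engulfment, and CD276 is a B7 family member whose receptor is still debated. ULBP1, ULBP2, MICA and MICB are stress-induced ligands of the activating receptor NKG2D on NK and T cells, and the DNA damage response is known to raise ligands of this family. PVR and NECTIN2 bind the activating receptor DNAM-1 and the inhibitory receptor TIGIT, so the same ligand can give either signal.

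The windows of 250 bases before the RefSeq start (GRCh38.p14) are shown for 5 of these genes, which changed between groups in the comparisons given further on or pair with a gene that did. RefSeq starts were found for 9 of the 10 genes, and PDCD1LG2 was not matched. In CD274 (chr9:5450292-5450541, plus strand) the capitals mark a pair of overlapping interferon-stimulated response element cores (GAAA and GAAA separated by any 2 bases, on the reverse strand, bases 208 to 199 and 202 to 193 before the start) and an interferon-gamma activated site (TTCNNNGAA, bases 125 to 117). In ULBP1 (chr6:149963693-149963942, plus strand) and ULBP2 (chr6:149941764-149942013, plus strand) they mark GC boxes (GGGCGG) and, in ULBP2, a CCAAT box. In MICA (chr6:31403345-31403594, plus strand) and MICB (chr6:31497895-31498144, plus strand) they mark a heat shock element (GAANNTTC). Each window was marked only for the motifs named for it here, and other matches were left in lower case.
CD274: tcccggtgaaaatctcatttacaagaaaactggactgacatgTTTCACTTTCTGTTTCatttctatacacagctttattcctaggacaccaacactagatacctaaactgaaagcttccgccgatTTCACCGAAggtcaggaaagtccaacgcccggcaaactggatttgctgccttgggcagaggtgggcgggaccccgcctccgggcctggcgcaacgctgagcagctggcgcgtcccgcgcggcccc
ULBP1: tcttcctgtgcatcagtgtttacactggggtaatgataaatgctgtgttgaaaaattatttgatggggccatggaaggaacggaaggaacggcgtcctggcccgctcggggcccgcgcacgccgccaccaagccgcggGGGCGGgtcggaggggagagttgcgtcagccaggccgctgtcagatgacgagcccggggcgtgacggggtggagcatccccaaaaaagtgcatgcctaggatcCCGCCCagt
ULBP2: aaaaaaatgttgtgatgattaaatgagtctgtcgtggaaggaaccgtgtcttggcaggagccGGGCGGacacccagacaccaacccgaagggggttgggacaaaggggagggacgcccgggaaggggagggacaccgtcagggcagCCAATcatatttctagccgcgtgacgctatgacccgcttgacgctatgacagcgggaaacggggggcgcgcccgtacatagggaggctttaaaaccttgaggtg
MICA: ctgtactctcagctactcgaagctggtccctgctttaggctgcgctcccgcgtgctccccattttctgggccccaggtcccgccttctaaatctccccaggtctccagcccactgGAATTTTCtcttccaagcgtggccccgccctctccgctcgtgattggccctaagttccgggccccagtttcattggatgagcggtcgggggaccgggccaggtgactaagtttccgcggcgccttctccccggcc
MICB: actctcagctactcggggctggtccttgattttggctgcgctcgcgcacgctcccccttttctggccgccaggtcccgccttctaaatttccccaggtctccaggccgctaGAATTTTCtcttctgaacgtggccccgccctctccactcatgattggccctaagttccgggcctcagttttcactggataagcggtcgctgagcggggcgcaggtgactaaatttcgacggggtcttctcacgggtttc
The RefSeq starts of MICA and MICB lie inside the genes as the GENCODE 29 annotation of hg38 draws them, from 31399784 and from 31494881. The MICA and MICB windows were 85.4% identical over 246 aligned bases, with the heat shock letters at bases 135 to 128 and 139 to 132 before the start. The windows of ULBP1 and ULBP2, genes whose starts lie 22.0 kb apart, were 66.0% identical over 200 aligned bases. Both strands were searched in 35116 RefSeq promoter windows of the same length. The interferon-stimulated core was in 3.02% of them, the interferon-gamma site in 6.57%, the heat shock element in 5.78%, the GC box in 42.6%, the CCAAT box in 32.0% and an NF-kB site in 9.96%. Among the 9 matched genes the interferon-stimulated core and the interferon-gamma site were found only in the CD274 window. The heat shock element was found only in those of MICA and MICB, and the NF-kB site in those of ULBP1 (bases 42 to 33) and CD276. GC boxes were found in the windows of CD274, CD276, CD47, MICA, MICB, NECTIN2, ULBP1 and ULBP2. CCAAT boxes were found in those of CD276, MICA, MICB and ULBP2. A match is a run of letters and not a measured site, and factor binding was not measured here.

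Libraries held 66150539 to 99142099 counts, and 3 counts, the limit that a count of 0 allows, stood for 0.0303 to 0.0454 CPM. CPM is the count scaled for library size. For this floor the library total alone was used, and for the levels of genes the trimmed mean of M values as well. The 10 ligands held 259 to 12338 counts in every library, far above that floor, and all 10 passed the filter on low counts that left 21803 genes tested. Floors cover counting error only. Small parts of 3 genes overlap another annotated gene, and the strand setting of the counting is not given in the sources used here. They are 2.6% of the MICA exons with HCP5, 3.4% of those of PVR with CEACAM19 and 3.4% of those of NECTIN2 with an antisense transcript, and these partners averaged at most 141.5 counts. Replicate 2 of the deleted DMSO group had 6.90% of its counts in mitochondrial genes, replicate 1 of the intact doxorubicin group had 5.54%, and the share in the other 10 libraries was 2.61% to 3.57%. Transcripts tied to particular chromosomes did not match the karyotype on record for HS578T in 12 of 12 libraries, so cells are named only as labelled. The mesenchymal markers listed for the labelled line were all detected, with a summed level of 4673 to 9559 CPM. ESR1 and PGR averaged at most 0.105 CPM in any group. These levels do not establish which line the cells are. ERBB2 (HER2) RNA averaged 81.8 CPM in deleted doxorubicin, 104.3 in intact doxorubicin, 98.9 in deleted DMSO and 98.2 in intact DMSO libraries. Of 18 immune receptors and adaptors of lymphocytes, among them PD-1, NKG2D, DNAM-1 and TIGIT, 3 passed the filter, and all 18 together reached 1.02 to 1.66 CPM in a library. Bulk RNA does not tell fewer cells with an RNA from less of that RNA per cell.

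Levels can be set side by side between genes only per length, as CPM per kilobase of annotated exon. In untreated intact cells PVR was the most abundant, at 35.4 CPM per kilobase, followed by MICA at 30.9, MICB at 25.2, NECTIN2 at 21.5, CD276 at 17.4, CD47 at 10.0 and ULBP2 at 7.15. ULBP1 at 3.5 and PDCD1LG2 at 3.20 overlapped between libraries, and CD274 was the lowest at 1.78. CD274, PDCD1LG2 and ULBP1 were thus the least abundant of the 10, and PVR, MICA and MICB the most. PVR led and CD274 was lowest in all 4 groups, although in intact doxorubicin cells PVR at 35.6, MICA at 33.4 and MICB at 29.6 overlapped with their neighbours in this order. The gene that moved most was ULBP1, at 16.9 CPM per kilobase in deleted cells in doxorubicin, where it overlapped with CD276 at 17.9 and lay above ULBP2 at 14.7. In deleted cells in DMSO it was at 5.44, below CD47 at 7.77. There the libraries of NECTIN2, MICB, MICA and CD276, at 23.5, 22.6, 20.4 and 19.9, overlapped from each gene to the next.

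**Figure D1:**
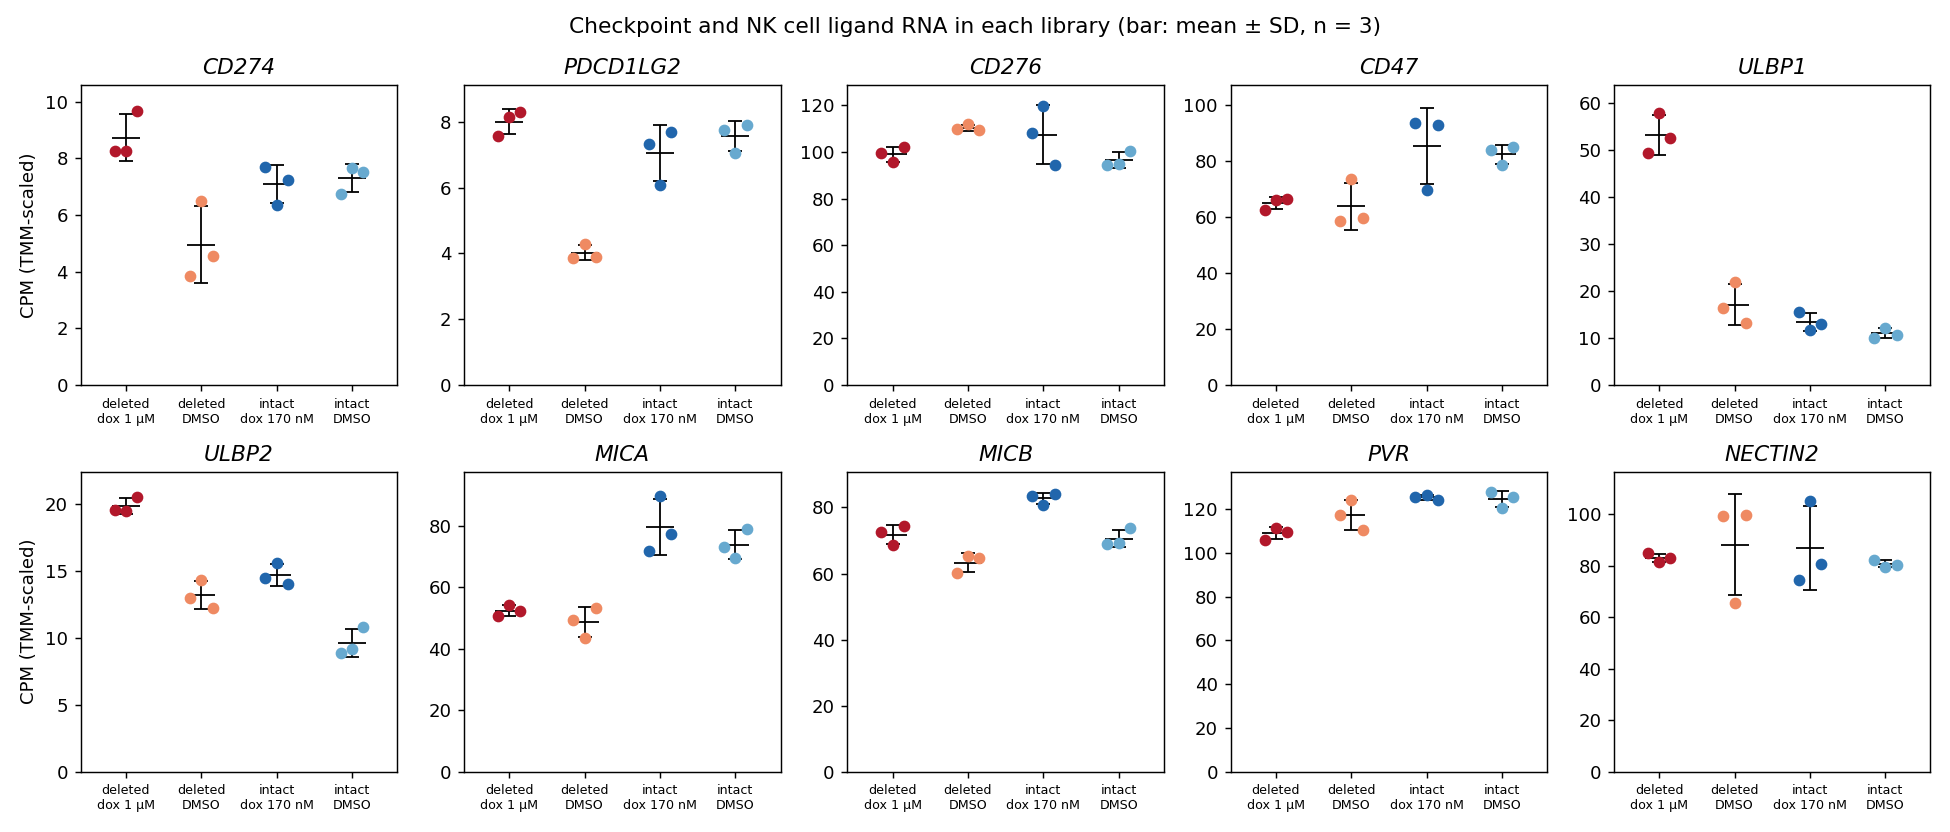
Level of each ligand gene in every library, in CPM scaled by trimmed mean of M values, with the group mean and SD (n = 3). Each panel has its own axis from 0; ULBP1, CD274 and PDCD1LG2 in deleted cells stand above their DMSO libraries in doxorubicin, and MICA and CD47 stand lower in deleted than in intact cells under both treatments.

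The first comparison asked what doxorubicin did to these ligands in cells labelled 17p-deleted. Of the 10 ligands, 4 rose and none fell by edgeR at an adjusted p under 0.05, where 17.5% of all genes tested rose, 13.1% fell and 30.7% were called in either direction. The median log2 fold change was 0.14 over the 10 and -0.02 over all genes. ULBP1 rose most, followed by both PD-1 ligands and ULBP2. The other 6, among them MICA, MICB and both DNAM-1 ligands, did not pass.

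ULBP1 (ENSG00000111981.5, chromosome 6, 149964007 to 149973710, plus strand, hg38) had 49.3, 57.8 and 52.5 CPM in deleted doxorubicin libraries, against 16.3, 21.9 and 13.2 CPM in deleted DMSO libraries. Every treated library was above every untreated one, and the ratio of the means was 3.11. Its log2 fold change was 1.64, SE 0.17 (edgeR adjusted p = 5.45e-06). ULBP2 (ENSG00000131015.5, chromosome 6, 149942000 to 149949235, plus strand), its neighbour in the same gene cluster, had 19.6, 19.5 and 20.6 CPM in deleted doxorubicin libraries, against 13.0, 14.4 and 12.3 CPM in deleted DMSO libraries. These libraries did not overlap either, and the log2 fold change was 0.59, SE 0.11 (edgeR adjusted p = 8.86e-04). ULBP2 shares reads with a near-identical gene: of the 1250 stretches of 100 bases in its longest transcript, 149 (11.9%) are also found elsewhere, most in RAET1L, and how the counting treated such reads is not given in the sources used here. RAET1L itself was at 1.91 ± 0.0761 CPM in deleted doxorubicin and 0.246 ± 0.100 CPM in deleted DMSO libraries (SD, n = 3 each). For ULBP1 the shared part was 35 of 3043 stretches (1.15%), most with RAET1K.

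The PD-1 ligands lie 60.1 kb apart on chromosome 9 and moved together in this comparison. CD274 (ENSG00000120217.14, chromosome 9, 5450503 to 5470566, plus strand) had 8.24, 8.25 and 9.68 CPM in deleted doxorubicin libraries, against 3.83, 6.48 and 4.55 CPM in deleted DMSO libraries. The groups did not overlap, and the untreated library nearest to the treated ones was replicate 2, of high mitochondrial share. The log2 fold change was 0.82, SE 0.17 (edgeR adjusted p = 0.00237), and 1.05 without the 2 libraries of highest mitochondrial share. PDCD1LG2 (ENSG00000197646.8, chromosome 9, 5510570 to 5571254, plus strand) had 7.58, 8.14 and 8.28 CPM in deleted doxorubicin libraries, against 3.86, 4.28 and 3.90 CPM in deleted DMSO libraries. Its level was about doubled, with a ratio of means of 1.99 and a log2 fold change of 0.99, SE 0.12 (edgeR adjusted p = 3.26e-05).

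MICA (ENSG00000204520.14, chromosome 6, 31399784 to 31415315, plus strand) had 50.7, 54.2 and 52.1 CPM in deleted doxorubicin libraries, against 49.3, 43.4 and 53.3 CPM in deleted DMSO libraries. The libraries overlapped, and the log2 fold change of 0.11 had a 95% interval of -0.14 to 0.35 (edgeR adjusted p = 0.490). MICB (ENSG00000204516.10, chromosome 6, 31494881 to 31511124, plus strand) had 72.5, 68.5 and 74.3 CPM in deleted doxorubicin libraries, against 60.1, 65.2 and 64.6 CPM in deleted DMSO libraries. Its libraries did not overlap, yet its log2 fold change of 0.18 did not pass (edgeR adjusted p = 0.0956, 0.0443 with library totals as the scaling and 0.0465 by DESeq2). Over all genes tested, 45.3% had libraries that did not overlap in this comparison, 24.6% higher and 20.7% lower, and of the 10 ligands 5 were higher, 1 lower and 4 overlapped. The ligand whose libraries were all lower was CD276 (ENSG00000103855.18, chromosome 15, 73683966 to 73714518, plus strand), which did not pass. It averaged 99.04 ± 3.23 CPM in deleted doxorubicin and 110.4 ± 1.31 CPM in deleted DMSO libraries (SD, n = 3 each), a log2 fold change of -0.16 (edgeR adjusted p = 0.217).

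PVR (ENSG00000073008.15, chromosome 19, 44643798 to 44663583, plus strand) had 106.0, 111.4 and 109.7 CPM in deleted doxorubicin libraries, against 117.1, 124.0 and 110.6 CPM in deleted DMSO libraries. These overlapped, and the log2 fold change of -0.10 had a 95% interval of -0.28 to 0.07 (edgeR adjusted p = 0.326). CD47 (ENSG00000196776.17, chromosome 3, 108043094 to 108091862, minus strand) had 62.6, 66.0 and 66.6 CPM in deleted doxorubicin libraries, against 58.6, 73.5 and 59.7 CPM in deleted DMSO libraries. Its log2 fold change was 0.03, with a 95% interval of -0.25 to 0.30 (edgeR adjusted p = 0.900). NECTIN2 (ENSG00000130202.10, chromosome 19, 44846175 to 44889228, plus strand) had 84.7, 81.6 and 83.0 CPM in deleted doxorubicin libraries, against 99.4, 65.5 and 99.6 CPM in deleted DMSO libraries. The low untreated value was again replicate 2. NECTIN2 did not pass with all libraries (log2 fold change -0.08, edgeR adjusted p = 0.726), nor without that replicate alone (-0.27). It fell by 0.27 on the log2 scale without the 2 libraries of highest mitochondrial share, replicate 2 of the deleted DMSO group and replicate 1 of the intact doxorubicin group (edgeR adjusted p = 0.0374). NECTIN2 transcripts hold 59.4% G and C and those of CD274 40.9%. The deviations of genes from their group means followed transcript GC content in several libraries, over genes, which are not independent replicates. The Spearman rho was 0.656, -0.747 and 0.712 in deleted DMSO replicates 1, 2 and 3, and -0.688, 0.731 and -0.349 in intact doxorubicin replicates 1, 2 and 3. It lay between -0.143 and 0.161 in the other 6 libraries.

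**Figure D2:**
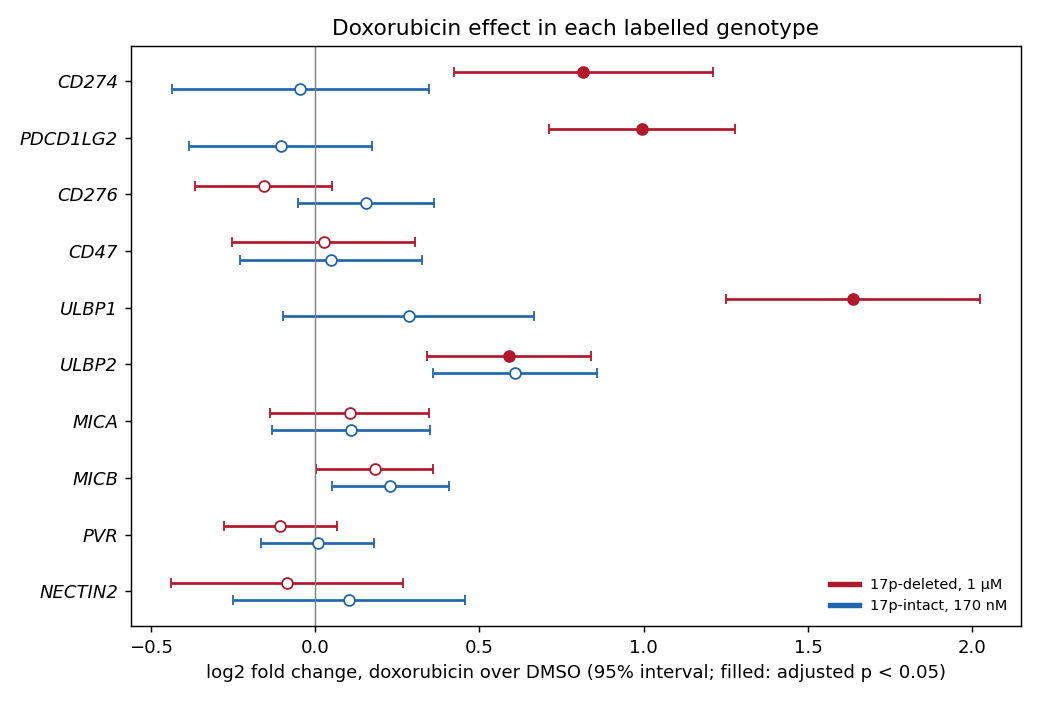
Log2 fold change of each ligand gene in doxorubicin over DMSO, with a 95% interval made from its SE. Deleted cells (1 µM) are red, the upper of each pair, and intact cells (170 nM) are blue. Filled points have an edgeR adjusted p under 0.05. ULBP1, PDCD1LG2, CD274 and ULBP2 pass in deleted cells, no ligand passes in intact cells, and the paired points of ULBP2 lie at 0.59 and 0.61.

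In cells labelled 17p-intact, at 170 nM, no ligand passed, where 0.0596% of all genes tested did by edgeR, 0.0275% higher and 0.0321% lower. At an unadjusted p under 0.05 there were 2 ligands, ULBP2 and MICB, and 2504 genes in all; by DESeq2 210 genes were higher and 192 lower, and 1 ligand, ULBP2, passed. The median log2 fold change was 0.11 over the 10 ligands and 0.01 over all genes. ULBP2 had 14.5, 15.6 and 14.1 CPM in intact doxorubicin libraries, against 8.89, 9.19 and 10.8 CPM in intact DMSO libraries. Every treated library was higher, and the log2 fold change was 0.61, SE 0.11 (edgeR adjusted p = 0.0588). That value fell on either side of the threshold with the processing, from 6.28e-05 to 0.336 over the alternatives tried. MICB had 83.4, 80.9 and 84.1 CPM in intact doxorubicin libraries, against 69.0, 69.1 and 73.7 CPM in intact DMSO libraries. It did not overlap either, with a log2 fold change of 0.23 and a 95% interval of 0.05 to 0.41 before adjustment (edgeR adjusted p = 0.281). ULBP2 and MICB were the 2 ligands of 10 whose libraries were all higher and none was all lower, where 10.7% of all genes were higher and 8.67% lower without overlap.

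ULBP1 had 15.5, 11.8 and 12.9 CPM in intact doxorubicin libraries, against 10.1, 12.2 and 10.7 CPM in intact DMSO libraries. The libraries overlapped, and the log2 fold change of 0.28 had a 95% interval of -0.10 to 0.67 (edgeR adjusted p = 0.540). CD274 had 7.69, 6.36 and 7.23 CPM in intact doxorubicin libraries, against 6.75, 7.66 and 7.53 CPM in intact DMSO libraries, a log2 fold change of -0.04 with a 95% interval of -0.43 to 0.35 (edgeR adjusted p = 0.950). PDCD1LG2 had 7.34, 6.09 and 7.70 CPM in intact doxorubicin libraries, against 7.74, 7.05 and 7.91 CPM in intact DMSO libraries, a log2 fold change of -0.10 with a 95% interval of -0.38 to 0.17 (edgeR adjusted p = 0.789). Both PD-1 ligands thus overlapped between treated and untreated intact cells. MICA, CD47, CD276, PVR and NECTIN2 overlapped as well, with log2 fold changes between 0.01 and 0.15 and adjusted p-values by edgeR of at least 0.539. The signs of CD47 and PVR here changed with the scaling.

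The doxorubicin effects themselves differed between the labelled genotypes, at doses that also differed, for 3 of the 10 ligands, all with the larger effect in deleted cells. Over all genes tested 10.3% had a difference called in that direction, 6.74% in the other and 17.0% in either, and the median difference was -0.02 over the 10 ligands and -0.03 over all genes. With library totals as the scaling, 2538 genes were called higher and 1020 lower in place of 2235 and 1470, and the median of all genes moved to 0.08. The difference of log2 fold changes was 1.35 for ULBP1, SE 0.23 (edgeR adjusted p = 0.00116), 1.10 for PDCD1LG2, SE 0.17 (edgeR adjusted p = 5.39e-04), and 0.86 for CD274, SE 0.24 (edgeR adjusted p = 0.0250). That of CD274 did not pass when any of 5 libraries was left out, with values of 0.71 to 0.85 and adjusted p-values by edgeR of up to 0.0674. For ULBP2 the difference was -0.02, with a 95% interval of -0.37 to 0.33, so a like effect at both doses and a difference of up to that size both lie within the error. For MICA the interval was -0.34 to 0.34, for CD47 -0.42 to 0.37 and for NECTIN2 -0.69 to 0.31. CD276 had a difference of -0.31 (edgeR adjusted p = 0.116), and with the trend on transcript GC content removed it was -0.58 and passed (adjusted p = 0.0244 by edgeR). NECTIN2 passed in the same setting, at -0.37 (adjusted p = 0.0166 by edgeR).

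The genotype labels also differed without the drug. In DMSO 2 of the 10 ligands were higher and 4 lower in deleted than in intact cells, where 18.8% of all genes were higher, 16.2% lower and 34.9% called in either direction. The median log2 fold change was -0.12 over the 10 and 0.04 over all genes. The ULBP genes were higher, and PDCD1LG2, MICA, CD274 and CD47 were lower. ULBP1, with 16.3, 21.9 and 13.2 CPM in deleted DMSO and 10.1, 12.2 and 10.7 CPM in intact DMSO libraries, had a log2 fold change of 0.64, SE 0.17 (edgeR adjusted p = 0.00894). Without replicate 2 of the deleted DMSO group, its highest library, the value was 0.40 (edgeR adjusted p = 0.0312), and 0.39 without the 2 libraries of highest mitochondrial share. ULBP2 averaged 13.2 ± 1.07 CPM in deleted DMSO and 9.64 ± 1.05 CPM in intact DMSO libraries (SD, n = 3 each), a log2 fold change of 0.45 (edgeR adjusted p = 0.00532).

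PDCD1LG2 averaged 4.01 ± 0.228 CPM in deleted DMSO and 7.57 ± 0.452 CPM in intact DMSO libraries (SD, n = 3 each). The libraries did not overlap, and the log2 fold change was -0.91, SE 0.12 (edgeR adjusted p = 7.10e-05). CD274 averaged 4.95 ± 1.37 CPM in deleted DMSO and 7.31 ± 0.489 CPM in intact DMSO libraries (SD, n = 3 each), a log2 fold change of -0.56, SE 0.17 (edgeR adjusted p = 0.0208). It did not pass without replicate 1 or replicate 3 of the deleted group or replicate 3 of the intact group, at -0.41 to -0.54 with adjusted p-values by edgeR of up to 0.0886, and it was -0.82 without replicate 2 of the deleted group. In doxorubicin neither PD-1 ligand passed: PDCD1LG2 averaged 8.0 ± 0.374 CPM in deleted and 7.04 ± 0.847 CPM in intact doxorubicin libraries (SD, n = 3 each; edgeR adjusted p = 0.228). For CD274 the averages were 8.73 ± 0.829 CPM in deleted and 7.09 ± 0.675 CPM in intact doxorubicin libraries (SD, n = 3 each; edgeR adjusted p = 0.162). The deleted DMSO group thus had the lowest average of both genes, although its replicate 2, at 6.48 CPM of CD274, lay above the lowest intact doxorubicin library at 6.36 CPM. These libraries enter the doxorubicin effect in deleted cells, the genotype effect in DMSO and the difference of effects alike.

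MICA, a ligand of NKG2D encoded in the major histocompatibility complex, was lower in deleted cells under both treatments by nearly the same amount. It averaged 48.6 ± 4.98 CPM in deleted DMSO and 73.8 ± 4.73 CPM in intact DMSO libraries (SD, n = 3 each), a log2 fold change of -0.60, SE 0.11 (edgeR adjusted p = 6.03e-04). In doxorubicin it averaged 52.4 ± 1.77 CPM in deleted and 79.6 ± 9.21 CPM in intact libraries (SD, n = 3 each), again a log2 fold change of -0.60 (edgeR adjusted p = 3.19e-04). No deleted library reached an intact library of the same treatment. CD47 behaved alike at a smaller size, with 63.9 ± 8.35 CPM in deleted DMSO and 82.5 ± 3.44 CPM in intact DMSO libraries (SD, n = 3 each), a log2 fold change of -0.37 (edgeR adjusted p = 0.0296). Leaving aside that a 2-fold change was not reached, it lost the threshold in 5 of the alternatives, all but 1 of them the loss of a library, with values of -0.31 to -0.37. In doxorubicin CD47 was at 65.1 ± 2.15 CPM in deleted and 85.3 ± 13.7 CPM in intact libraries (SD, n = 3 each), a log2 fold change of -0.39 (edgeR adjusted p = 0.0160), and it did not pass without replicate 3 of the intact doxorubicin group, at -0.33.

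Among doxorubicin libraries 2 ligands were higher and 4 lower in deleted cells, where 25.9% of all genes were higher, 21.9% lower and 47.8% called in either direction. The median log2 fold change was -0.09 over the 10 and 0.02 over all genes. ULBP1 showed the widest gap of the 10, at 53.2 ± 4.27 CPM in deleted and 13.4 ± 1.90 CPM in intact doxorubicin libraries (SD, n = 3 each), a ratio of 3.97 and a log2 fold change of 1.99, SE 0.17 (edgeR adjusted p = 5.03e-07). ULBP2 was higher by 0.43 on the log2 scale, SE 0.11 (edgeR adjusted p = 0.00425). MICB averaged 71.8 ± 2.93 CPM in deleted and 82.8 ± 1.69 CPM in intact doxorubicin libraries (SD, n = 3 each). PVR averaged 109.0 ± 2.79 CPM in deleted and 125.4 ± 1.16 CPM in intact doxorubicin libraries (SD, n = 3 each). Both were thus lower in deleted cells, by little. Their log2 fold changes were -0.21 and -0.20 (edgeR adjusted p = 0.0415 for MICB and 0.0397 for PVR). Leaving aside a rule that asks for a 2-fold change as well, each lost the threshold in 9 of 24 alternatives, with library totals as the scaling at -0.12 each. CD276 and NECTIN2 did not pass under either treatment, with log2 fold changes of 0.19 and 0.13 in DMSO and -0.12 and -0.06 in doxorubicin. With the trend on transcript GC content removed, both passed in DMSO, CD276 at 0.35 (adjusted p = 0.0359 by edgeR) and NECTIN2 at 0.22 (adjusted p = 0.0244 by edgeR). NECTIN2 also passed in DMSO without the 2 libraries of highest mitochondrial share, at 0.27 (adjusted p = 0.0355 by edgeR). Libraries of the 2 genotypes did not overlap for 3 ligands higher and 5 lower in DMSO, against 25.7% of all genes higher, 23.9% lower and 49.5% in either direction. In doxorubicin they did not for 3 ligands higher and 4 lower, against 31.4% of all genes higher, 25.6% lower and 57.1% in either direction.

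**Figure D3:**
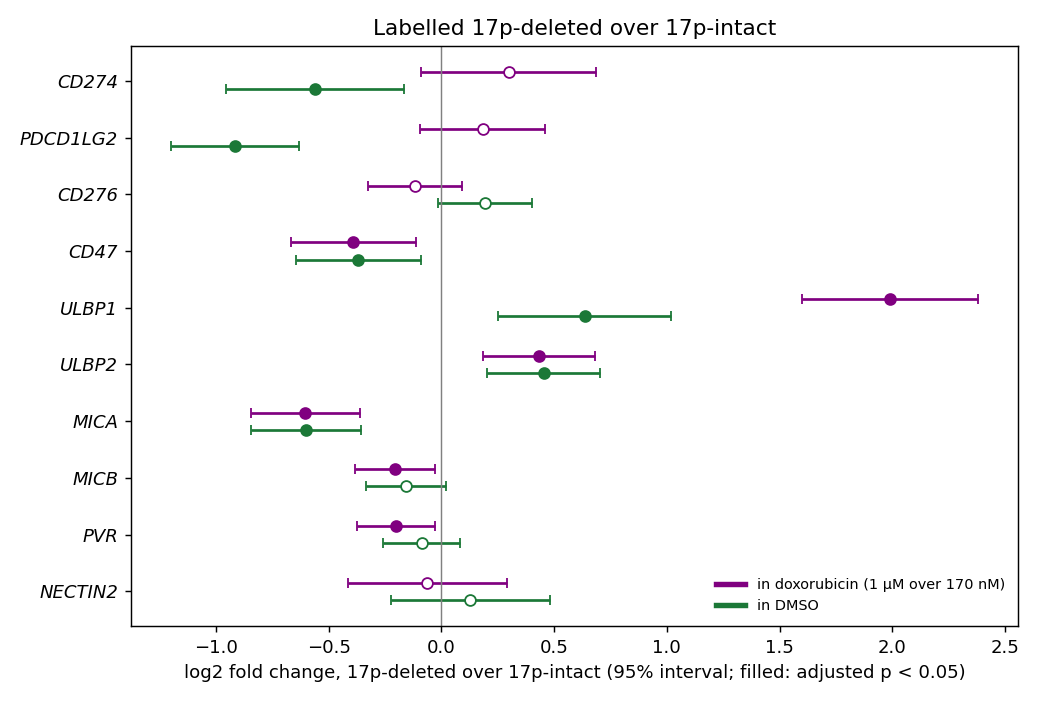
Log2 fold change of each ligand gene in deleted over intact cells, with a 95% interval made from its SE. Doxorubicin libraries (1 µM over 170 nM) are purple, the upper of each pair, and DMSO libraries are green. Filled points have an edgeR adjusted p under 0.05. MICA and CD47 lie at nearly the same negative value under both treatments, CD274 and PDCD1LG2 are negative in DMSO, and ULBP1 lies at 1.99 in doxorubicin and 0.64 in DMSO.

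The 4 NKG2D ligands changed in makeup as well as in sum. Their summed level per length was 77.4, 80.1 and 80.3 CPM per kilobase in deleted doxorubicin libraries, against 56.9, 59.1 and 58.7 in deleted DMSO libraries. It was 75.5, 81.8 and 77.0 CPM per kilobase in intact doxorubicin libraries, against 65.1, 64.5 and 70.8 in intact DMSO libraries. Treated libraries were above untreated ones in both genotypes, and the treated sums of the 2 genotypes overlapped. ULBP1 made up 20.3% to 23.0% of the sum in deleted doxorubicin libraries and 7.13% to 11.8% in deleted DMSO libraries. Its share was 4.58% to 6.53% in intact doxorubicin and 4.82% to 6.01% in intact DMSO libraries. MICA made up 27.2% to 28.4% in deleted doxorubicin and 30.7% to 38.0% in deleted DMSO libraries, against 39.8% to 45.9% in intact doxorubicin and 45.1% to 47.0% in intact DMSO libraries. These sums and shares are a description, with no test over the 4 genes.

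**Figure D4:**
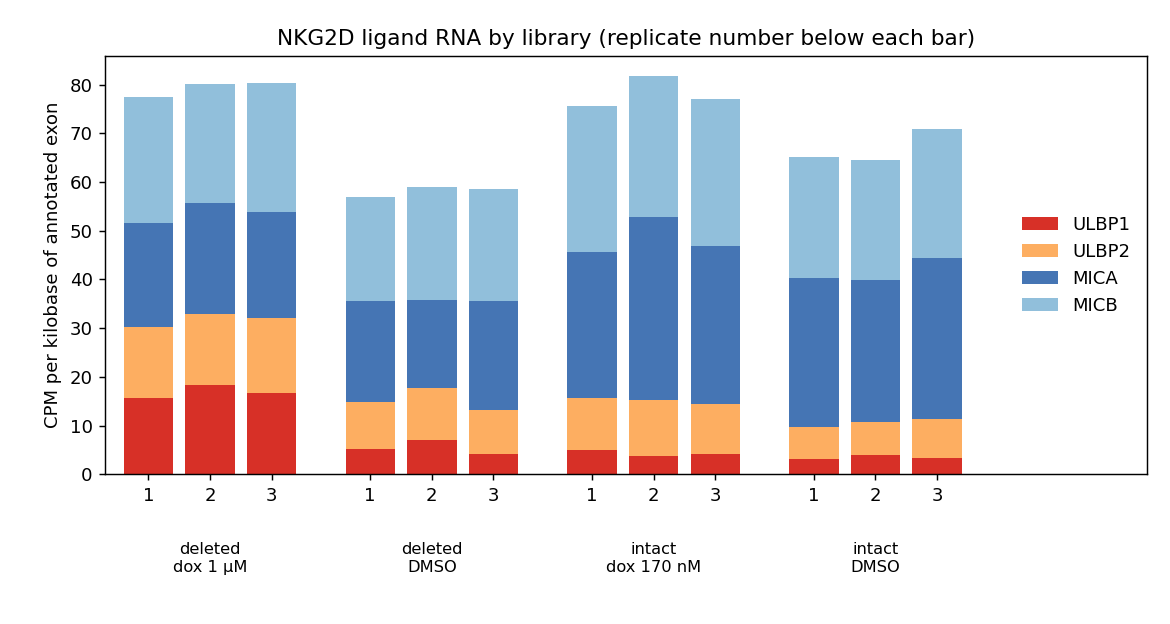
Level of ULBP1, ULBP2, MICA and MICB stacked in each library, in CPM per kilobase of annotated exon, with replicate numbers under the bars. The summed height is 77.4 to 80.3 in deleted doxorubicin libraries and 75.5 to 81.8 in intact doxorubicin libraries, and the ULBP1 part is 20.3% to 23.0% of it in deleted doxorubicin libraries and at most 6.53% in intact ones.

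The genes around each ligand were set beside it, taking tested genes whose lowest annotated coordinate lay within 500 kb. CD274 had 6 such neighbours, PDCD1LG2 among them, of which 2 (PDCD1LG2 and RIC1) rose and 1 fell in doxorubicin in deleted cells, with a median log2 fold change of 0.07. In that comparison 17.5% of all genes tested rose and 13.1% fell. On the other side of CD274 from PDCD1LG2, PLGRKT at 92.5 kb had a log2 fold change of 0.12 there (edgeR adjusted p = 0.600), and beyond PDCD1LG2 RIC1 at 118.0 kb rose by 0.46 (edgeR adjusted p = 0.0204). In DMSO 3 of the 6 were lower and none was higher in deleted cells, where 16.2% of all genes were lower and 18.8% higher. Beside PDCD1LG2 they were PLGRKT at -1.17 (edgeR adjusted p = 6.37e-05) and RIC1 at -0.64 (edgeR adjusted p = 0.00256). Low levels in deleted cells were thus shared by genes on both sides of the PD-1 ligands. In doxorubicin PLGRKT stayed lower, at -1.09 (edgeR adjusted p = 5.18e-05), as did RIC1, at -0.37 (edgeR adjusted p = 0.0375), where neither PD-1 ligand passed. Of the 6 neighbours of CD274, 3 were lower and 0 higher there, against 21.9% of all genes lower and 25.9% higher. Around MICA 22 of 54 neighbours were lower and 0 higher in deleted DMSO libraries, with a median of -0.41, and around MICB 29 of 58 were lower and 0 higher, with a median of -0.60. Many of these are the same genes, since MICA and MICB lie close together and each is among the neighbours of the other. ULBP1 had 18 neighbours, ULBP2 among them, of which 4 rose and 4 fell in doxorubicin in deleted cells, with a median of -0.01, and the next gene on the side of ULBP2, RAET1G, was at 0.27 (edgeR adjusted p = 0.371).

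Genes with the most similar profile over the 12 libraries were found for the 3 ligands whose doxorubicin effects differed, by the root mean square distance of centred log2(CPM + 1) among 12744 genes. CD274 was nearest to TMA16 at 0.12 and ZNF674 at 0.13, against its own spread of 0.31. PDCD1LG2 was nearest to PRRG4 at 0.085 and ERAP1 at 0.097, against a spread of 0.35. ULBP1 was nearest to FBXO22 at 0.13 and MUC2 at 0.16, against a spread of 0.87. FBXO22 averaged 160.8 CPM in deleted doxorubicin, 52.5 in deleted DMSO, 44.8 in intact doxorubicin and 40.3 in intact DMSO libraries. MUC2 averaged 5.59, 0.7445, 0.376 and 0.186 CPM in those groups. Below 1 CPM the 1 added before the log shrinks differences, which brings MUC2 closer. Its log2 fold change in doxorubicin was 2.91 in deleted and 1.02 in intact cells, against 1.64 and 0.28 for ULBP1. ERAP1 averaged 42.5 CPM in deleted doxorubicin, 23.7 in deleted DMSO, 42.6 in intact doxorubicin and 41.2 in intact DMSO libraries, the order of a gene low only in the deleted DMSO group. These distances are descriptions over libraries that share their groups.

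The other genes of these pathways were read as lists, for doxorubicin in deleted cells, where 17.5% of all genes tested rose, 13.1% fell and 30.7% were called in either direction. The counts of each list are descriptions to be read against those shares, and no list was tested against other genes. Of the other NKG2D ligands, 1 of 4 rose and 1 fell: RAET1L rose by 2.95 on the log2 scale, SE 0.31 (edgeR adjusted p = 7.51e-06), and ULBP3 fell by 0.55 (edgeR adjusted p = 0.0110). The rise was thus not shared by the family, with ULBP3 at 13.5 ± 1.5 CPM in deleted doxorubicin and 19.8 ± 3.77 CPM in deleted DMSO libraries (SD, n = 3 each). Of 4 other nectins and nectin-like ligands 3 rose and none fell. NECTIN4, a nectin used as an antibody-drug target in cancer and a ligand of TIGIT, rose by 4.58, SE 0.18 (edgeR adjusted p = 1.30e-09), with 112.1 ± 2.74 CPM in deleted doxorubicin and 4.68 ± 0.203 CPM in deleted DMSO libraries (SD, n = 3 each). It averaged 1.05 CPM in both intact groups. CADM1, which binds CRTAM on activated NK and T cells, rose by 1.13 (edgeR adjusted p = 8.25e-05), and NECTIN3 did not pass (log2 fold change -0.36, edgeR adjusted p = 0.0972).

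Of 17 other B7, butyrophilin and checkpoint ligands 11 were tested, 6 rose and 1 fell, with a median log2 fold change of 0.52. CEACAM1, an inhibitory adhesion molecule, rose by 4.02 (edgeR adjusted p = 8.19e-08) to 31.1 ± 2.33 CPM in deleted doxorubicin libraries, against 1.92 ± 0.560 CPM in deleted DMSO libraries (SD, n = 3 each). VSIR (VISTA) rose by 1.48 (edgeR adjusted p = 8.19e-05), and CD24 did not pass. VSIR averaged 8.49 CPM in deleted DMSO and 23.7 CPM in deleted doxorubicin libraries. In intact cells VSIR averaged 24.05 CPM in DMSO and 25.55 CPM in doxorubicin, so its rise started from a low deleted DMSO level. CD80 and CD86, the classical ligands of CD28, were at most 0.0283 CPM on average in any group. Of 9 costimulatory and adhesion ligands 7 were tested and 3 rose, among them ICAM1 by 1.34 (edgeR adjusted p = 7.59e-08) and TNFSF9 (4-1BB ligand) by 0.86 (edgeR adjusted p = 0.00522). Of 6 other ligands of activating NK receptors 5 were tested, 1 rose and 2 fell. NCR3LG1 (B7-H6), the ligand of NKp30, rose by 1.19 (edgeR adjusted p = 1.54e-05) and PDGFD, a ligand of NKp44, fell by 1.19 (edgeR adjusted p = 0.00143).

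**Figure D5:**
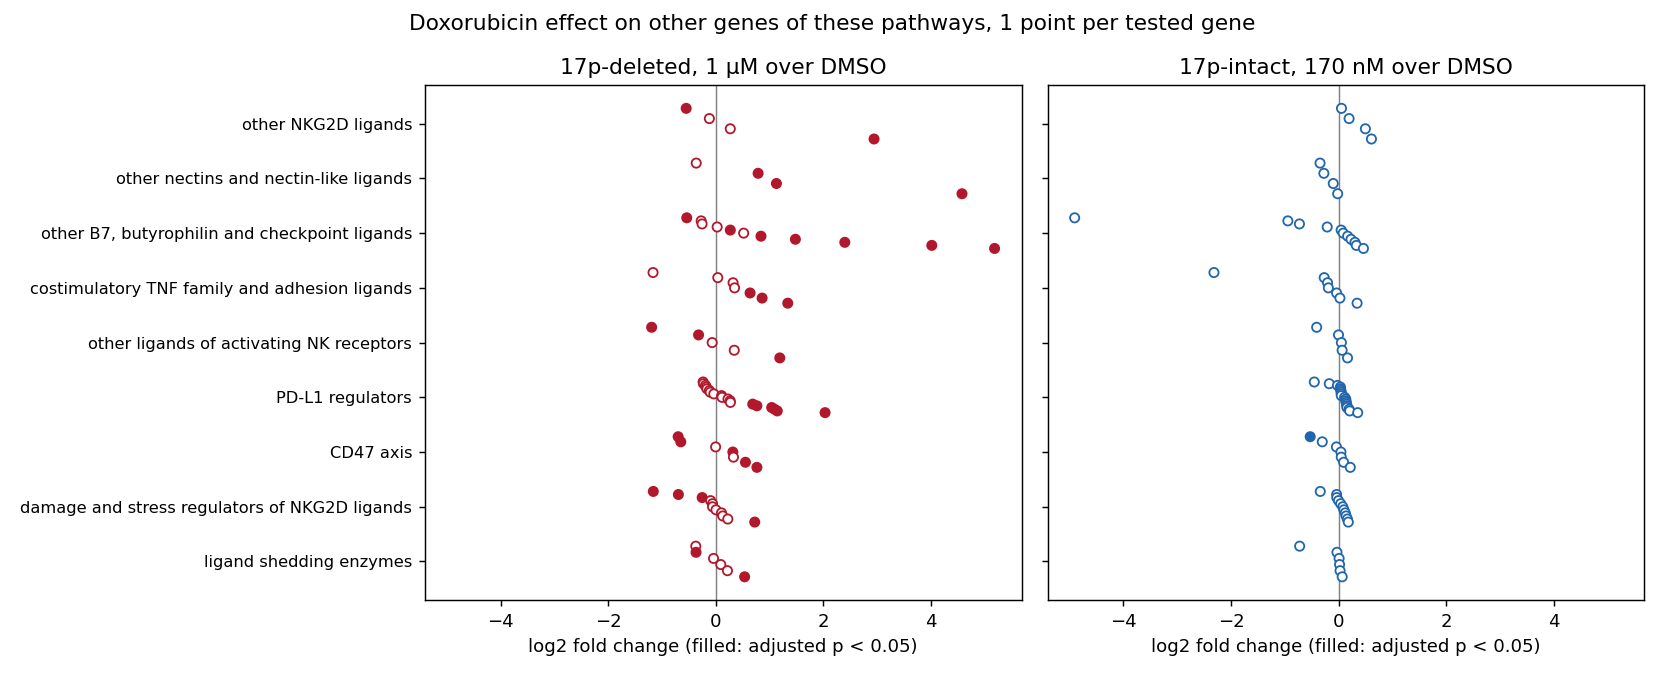
Log2 fold change in doxorubicin over DMSO of each tested gene of 9 pathway lists, in deleted cells (left, 1 µM) and intact cells (right, 170 nM), 1 point per gene; filled points have an edgeR adjusted p under 0.05. In deleted cells points lie filled on both sides of 0, with NECTIN4 at 4.58, CEACAM1 at 4.02, RAET1L at 2.95 and IRF1 at 2.03, and in intact cells the filled point is THBS1 at -0.53; the far points in intact cells are genes near 0 counts.

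Among 19 known regulators of PD-L1 expression, all tested, 6 rose and 0 fell in doxorubicin in deleted cells, with a median log2 fold change of 0.12, so 6 of 19 were called where 30.7% of all genes were. IRF1, the interferon regulatory factor that binds the interferon-stimulated element of the CD274 promoter, rose by 2.03, SE 0.10 (edgeR adjusted p = 8.26e-09). It averaged 51.9 ± 0.759 CPM in deleted doxorubicin and 12.7 ± 1.05 CPM in deleted DMSO libraries, and 28.3 ± 2.65 CPM in intact doxorubicin and 27.3 ± 1.86 CPM in intact DMSO libraries (SD, n = 3 each). Like CD274 and PDCD1LG2 it was thus lowest on average in deleted DMSO libraries, with a log2 fold change there of -1.11 against intact cells (edgeR adjusted p = 2.65e-06), and its doxorubicin effects differed by 1.98 (edgeR adjusted p = 5.73e-07). Other listed genes, such as STAT3, VSIR and TNFSF9, were lowest on average there too. A part of IRF1 in the levels of the PD-1 ligands was not tested. Of the 19 regulators 9 were lower and 4 higher in deleted DMSO libraries, where 16.2% of all genes were lower and 18.8% higher. IFNGR2 was among the higher ones, with a log2 fold change of 0.825 (edgeR adjusted p = 2.81e-05). In doxorubicin in deleted cells STAT3 rose by 1.04 (edgeR adjusted p = 2.54e-07), while HIF1A did not pass (edgeR adjusted p = 0.716). JAK2, on chromosome 9 as CD274 is, was at 9.34 ± 0.570 CPM in deleted doxorubicin and 10.6 ± 1.54 CPM in deleted DMSO libraries (SD, n = 3 each) and did not pass. JAK2 lies outside the rule for named genes and was chosen after its values were seen.

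Of 7 tested genes around CD47, 3 rose and 2 fell in deleted cells in doxorubicin. THBS1, the secreted CD47 ligand thrombospondin-1, fell by 0.70 (edgeR adjusted p = 1.15e-05) in deleted cells and by 0.53 in intact cells (edgeR adjusted p = 0.0368), the only listed gene called in intact cells. SIRPA, the receptor of CD47, was higher in deleted than in intact DMSO libraries by 1.03 on the log2 scale (edgeR adjusted p = 2.13e-07), at 113.4 ± 1.78 CPM in deleted and 55.7 ± 1.15 CPM in intact DMSO libraries (SD, n = 3 each). Of 11 damage and stress regulators of NKG2D ligands 1 rose and 3 fell, the lowest p-values being those of the heat shock genes HSPA1B at -0.69 (edgeR adjusted p = 1.60e-05) and HSPA1A at -1.16 (edgeR adjusted p = 3.17e-05). These 2 genes are near-identical copies, so reads may be split between them, and they lie in the same complex as MICA and MICB. Of 6 enzymes that shed these ligands 1 rose, MMP14 by 0.54 (edgeR adjusted p = 0.00741), and 1 fell, PDIA6 by 0.37 (edgeR adjusted p = 0.00803). In DMSO 3 of the 6 were lower in deleted cells, where 16.2% of all genes were lower and 34.9% called in either direction. Among the lower ones was ADAM17, at -0.45 on the log2 scale (edgeR adjusted p = 0.00317).

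Marker levels moved with the same comparison. The 7 mesenchymal markers together were at 4673 to 4804 CPM in deleted doxorubicin and 6661 to 7114 CPM in deleted DMSO libraries. They were at 7949 to 8121 CPM in intact doxorubicin and 9082 to 9559 CPM in intact DMSO libraries. Of the 7, 4 fell in doxorubicin in deleted cells, where 13.1% of all genes tested fell and 17.5% rose. The 10 blood cell markers summed to 3.72 to 5.13 CPM in deleted doxorubicin and 1.49 to 1.84 CPM in deleted DMSO libraries. In the intact groups they summed to 1.21 to 1.83 CPM in doxorubicin and 1.16 to 1.54 CPM in DMSO. Of the deleted doxorubicin sum 3.68 ± 0.656 CPM was ITGAM (SD, n = 3), an integrin of myeloid cells, which rose by 3.16 on the log2 scale (edgeR adjusted p = 1.21e-05). PTPRC, carried by all white blood cells, averaged 0.200 CPM in deleted doxorubicin and 0.530 CPM in deleted DMSO libraries, and CD2, MS4A1 and NKG7 had no counts in deleted doxorubicin libraries. The 7 epithelial markers summed to 549.1 to 556.7 CPM in deleted doxorubicin and 456.8 to 618.3 CPM in deleted DMSO libraries, nearly all of it KRT8 and KRT18. Of these 7, 3 rose, all at low levels: KRT5, KRT14 and KRT19. Of all genes tested 17.5% rose and 13.1% fell. KRT19 rose by 1.67 on the log2 scale (edgeR adjusted p = 2.33e-04), with 1.5 ± 0.291 CPM in deleted doxorubicin and 0.469 ± 0.0938 CPM in deleted DMSO libraries (SD, n = 3 each). In intact libraries KRT19 averaged 1.78 CPM in DMSO and 1.22 CPM in doxorubicin. KRT14 averaged 0.0887 CPM in deleted doxorubicin, 0.136 CPM in intact DMSO and 0.122 CPM in intact doxorubicin libraries. Both were lower in deleted than in intact DMSO libraries, KRT19 at -1.92 (edgeR adjusted p = 7.32e-05) and KRT14 at -3.695 (edgeR adjusted p = 0.00768). KRT5 averaged 0.702 CPM in deleted doxorubicin libraries, against 2 counts in all in deleted DMSO libraries and at most 0.0235 CPM on average in intact groups. The part of the mesenchymal and keratin shifts in the ligand results was not tested.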

How the data were processed

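The deposited values were raw counts per gene, 1 column for each of 12 libraries, made by the authors with bcl2fastq, STAR 2.7.9a on hg38 and featureCounts of Subread 2.0.1, per the submitters' processing notes. Annotation release and strand setting: not given in the sources used here. Of 60660 identifiers 60419 had a symbol and 58385 a GENCODE 29 position.

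Counts were filtered with filterByExpr and scaled by trimmed mean of M values. The 4 group means were tested over 21803 genes by the quasi-likelihood F test of edgeR 4.0.16 (R 4.3.3) without a replicate block, with Benjamini-Hochberg adjustment over all of them calling adjusted p-values under 0.05. SE, the standard error, is the fold change on the log2 scale over the root of its F statistic. Each 95% interval takes that SE and the t value at 8 residual degrees of freedom. It is not the inverse of the F test and can be wider. For CD276 between genotypes in DMSO it ran from -0.013 to 0.40, with an unadjusted p of 0.0497 by edgeR. Ratios are of mean CPM, and SD is over 3 libraries. CPM was divided by GENCODE 29 exon length only where genes are compared.

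The genes, lists and alternatives were chosen with earlier results of these data known. From each list the rule named the 2 genes of lowest p past the threshold and the most abundant one not past it; not all are printed. Alternatives were other scalings and filters, DESeq2 1.42.0, limma-voom (limma 3.58.1), the replicate block, a 2-fold change, removal of the GC trend by loess (span 0.5, GC known for 98% of genes), the groups compared alone, and leaving out libraries. The fit was tested on simulated counts. Within groups, pairs of libraries differed beyond sampling noise (chi-square per degree of freedom 8.18 to 192), so none was counted as a duplicate. Promoter windows came from RefSeq on GRCh38.p14.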

Additional observations from a re-analysis of the deposited data

Results flagged for a closer look

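The effect of doxorubicin differed between cells labelled 17p-deleted, given 1 µM, and cells labelled 17p-intact, given 170 nM, for 3 of the 10 ligands by the test of the difference itself. The difference of log2 fold changes was 1.35 for ULBP1 (edgeR adjusted p = 0.00116), 1.10 for PDCD1LG2 (edgeR adjusted p = 5.39e-04) and 0.86 for CD274 (edgeR adjusted p = 0.0250). In each, the 3 treated libraries of deleted cells were all above the 3 untreated ones, and those of intact cells overlapped. Of all genes tested, 24.6% were all higher in treated deleted libraries, and 19.4% did not overlap in intact cells. The difference of effects was called positive for 10.3% of all genes, negative for 6.74% and in either direction for 17.0%. Dose and genotype cannot be told apart in these differences.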

How the results depend on the processing

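Of 19 called values of the 10 ligands, 13 kept their direction and their side of the threshold in all alternatives but the 2-fold rule, 6 lost the threshold in at least 1 and 0 reversed. The 6 were CD274 in DMSO and in the difference of effects, CD47 between genotypes under both treatments, and MICB and PVR between genotypes in doxorubicin. With a 2-fold change asked as well, 1 ligand passed in deleted cells in doxorubicin (4 without that rule), 0 between genotypes in DMSO (6 without) and 1 between genotypes in doxorubicin (6 without). In intact cells 1 ligand, ULBP2, passed in place of 0 with no filter, with a filter of 1 CPM in 3 libraries, by DESeq2, with the GC trend removed, with the replicate block and the GC trend removed, and without the 2 libraries of highest mitochondrial share. Leaving out each library gave 0 to 1 there, and 1 without replicate 2 of the deleted DMSO group. Between genotypes in DMSO the count was 4 to 6 when leaving out each library, 7 without the 2 libraries and 8 with the GC trend removed, in place of 6. All genes rose in number there too, from 4092 higher and 3526 lower of 21803 to 4679 and 4351 with the GC trend removed. Without the 2 libraries 4093 were higher and 4186 lower of 22496 genes. Between genotypes in doxorubicin leaving out each library gave 3 to 6, with 3 without replicate 3 of the intact doxorubicin group. For the difference of effects it gave 2 to 4, and 5 passed with the GC trend removed, with or without the replicate block. The ligands added were CD276 and NECTIN2. Over all genes that difference was called higher for 2712 and lower for 2469 with the GC trend removed, in place of 2235 and 1470. With the block as well the counts were 2542 and 2146. Among all genes doxorubicin called 13 in intact cells, 248 higher and 145 lower with the GC trend removed, 73 and 123 with no filter, and 0 with the replicate block.

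Values near 0 that did not pass changed sign. For the doxorubicin effect in intact cells CD47 was -0.029 with library totals, -0.012 with the GC trend removed with or without the block, and -0.016 without the 2 libraries; PVR was -0.067 with library totals, -0.021 with no filter, -0.031 with 1 CPM and -0.016 with the groups alone. Between genotypes PVR in DMSO was 0.011 with the GC trend removed and 0.0073 with the block as well, and NECTIN2 in doxorubicin was 0.018 with library totals. For the difference of effects CD47 was 0.098 with library totals, 0.0022 with no filter, 0.0042 with 1 CPM, 0.077 with the GC trend removed, with or without the block, and 0.15 without the 2 libraries. ULBP2 was 0.096, 0.0075, 0.0071, 0.050 (0.046 with the block) and 0.022 in those settings. MICA was 0.0057 with RLE size factors, 0.10 with library totals, 0.021 with no filter, 0.024 with 1 CPM, 0.0058 by DESeq2, 0.0072 by limma-voom and 0.0027 without the 10 most abundant genes. With library totals MICB was 0.064 and PVR 0.00061. Leaving out each library, values crossed 0 in deleted cells for CD47 (-0.034 to 0.12) and NECTIN2 (-0.27 to 0.012). In intact cells they did for CD274 (-0.10 to 0.027), CD47 (-0.018 to 0.17), PVR (-0.031 to 0.027) and NECTIN2 (-0.059 to 0.21). They did for NECTIN2 between genotypes in doxorubicin (-0.20 to 0.065), and in the difference of effects for CD47 (-0.15 to 0.081), ULBP2 (-0.12 to 0.038) and MICA (-0.089 to 0.090). The causes were not tested.

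The labels give the groups the same replicate numbers. Deviations of same-numbered libraries correlated from -0.80 to 0.47 over 18 pairs, so the numbers were not taken to pair cultures. With the replicate block 4 ligands passed in doxorubicin in deleted cells, 0 in intact cells, 5 between genotypes in DMSO, 4 between genotypes in doxorubicin and 3 in the difference of effects. CD47 in DMSO (-0.37, edgeR adjusted p = 0.0591), and MICB and PVR between genotypes in doxorubicin (adjusted p = 0.0681 and 0.0728 by edgeR) lost the threshold. Of the 21803 genes tested with the block, 3473 were higher and 2423 lower in doxorubicin in deleted cells, and 0 in intact cells. Between genotypes 3549 were higher and 3171 lower in DMSO, and 5309 and 4379 in doxorubicin. For the difference of effects the counts were 1867 and 1046. Standard errors of the 10 ligands in single comparisons ran from 0.075 for PVR to 0.17 for CD274, which sets the size of change that 3 libraries a group could detect.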
